A study of Homo sapiens with 4 samples.

Results

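Long intergenic non-coding RNA genes were examined in HEK293T cells, an established human embryonic kidney line, with and without the putative RNA helicase HELZ. The genes were those whose symbol starts with LINC followed by 5 digits and whose read counts summed to at least 100 over the 4 libraries. Of 27011 genes with a row of counts, 917 carried such a symbol, and 126 of them (13.7%) reached the sum. The summed count chose the genes, and LINC01419 and LINC00693 were in addition named in advance because of their change, so that the values of these 2 genes are given without a test. Another 477 LINC symbols had 0 counts in every library and 314 had between 1 and 99 counts. Just outside the threshold lay LINC01057 with 99 counts, LINC01355 with 96 and LINC01125 with 92, and just inside it lay LINC01152 with 103 and LINC01461 and LINC01465 with 106 each. In this text they are called LINC genes.

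Wild-type (WT) HEK293T cells were compared with 1 Helz-null HEK293T line, so loss of HELZ and other differences of this line cannot be told apart. It had been made from HEK293T cells with Cas9 and a guide RNA to exon 8 of helz, which left a frameshifting deletion, and whether it is a single clone was not given in the sources used here. Each genotype had 2 biological replicate libraries, made from extracted total RNA with the TruSeq RNA Sample Prep Kit and read from both ends. Selection of poly(A) RNA is not described in the study, so how far RNAs without a tail were captured was not given. No treatment or time point differed between the genotypes. Read counts per library summed to between 41745401 and 70464140, so that 3 counts, taken as the floor of detection, corresponded to between 0.0426 and 0.0719 CPM (the usual scaling of a count by the total of its library). The summed CPM of 5 markers of HEK293T cells (PAX2, LHX1, NEFM, NEFL and VIM) was 1379 and 1376 in WT and 1520 and 1499 in Helz-null libraries, and each of them exceeded 1 CPM in every library. Both Helz-null libraries were higher in this sum, and the markers moved apart. NEFM rose from 232.8 and 223.0 CPM in WT to 434.2 and 429.8 CPM. PAX2 rose from 5.01 and 5.20 to 6.99 and 6.41 CPM, and LHX1 from 2.88 and 2.60 to 6.52 and 4.84 CPM. VIM fell from 1037 CPM in both WT libraries to 969.2 and 954.1 CPM, and NEFL stayed between 101.3 and 107.8 CPM in every library. Of 10 markers of other cell types, HBB and INS had 0 counts throughout, 8 stayed under 1 CPM in every library, and the sum of all 10 was 3.83 and 3.92 CPM in WT and 4.91 and 5.45 CPM in Helz-null libraries, most of it from CD68. The part of these markers in the results below was not tested.

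Long intergenic non-coding RNAs are transcripts without a long reading frame that are made from loci between protein-coding genes. Like mRNAs, most are capped, spliced and polyadenylated. They are usually less abundant and more restricted to particular cell types than mRNAs, some remain at their site of transcription and act on a gene nearby, and others act in the cytoplasm. The LINC symbols are placeholders, and several of these loci have later been found to encode small proteins. HELZ belongs to the UPF1-like helicases and binds the CCR4-NOT complex, the deadenylase that shortens poly(A) tails before mRNAs are decapped and degraded. Polyadenylated non-coding RNAs can be substrates of that machinery as well.

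Promoter sequences, from 250 bases before to 50 bases after the start of the gene, were taken from RefSeq (GRCh38.p14), where 81 of the 126 LINC genes had an entry. Those of LINC00693 and LINC00839, the 2 with the largest fall among those called, and of LINC01003 and LINC01234, 2 that rose, are printed 5′ to 3′ because they differ plainly in their elements. Capitals mark 3 short motifs searched on both strands, the GC box (GGGCGG), the CCAAT box (CCAAT) and the TATA motif (TATAAA), none of which is contained in another, and a motif on the opposite strand appears as its reverse complement.
LINC00693 promoter, chr3:28575028-28575327, plus strand: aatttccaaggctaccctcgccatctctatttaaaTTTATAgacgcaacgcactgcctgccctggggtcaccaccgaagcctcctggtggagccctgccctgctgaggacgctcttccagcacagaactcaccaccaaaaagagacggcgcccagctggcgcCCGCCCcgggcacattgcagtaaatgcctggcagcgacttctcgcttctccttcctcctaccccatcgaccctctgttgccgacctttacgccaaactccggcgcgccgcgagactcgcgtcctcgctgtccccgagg
LINC00839 promoter, chr10:42475241-42475540, plus strand: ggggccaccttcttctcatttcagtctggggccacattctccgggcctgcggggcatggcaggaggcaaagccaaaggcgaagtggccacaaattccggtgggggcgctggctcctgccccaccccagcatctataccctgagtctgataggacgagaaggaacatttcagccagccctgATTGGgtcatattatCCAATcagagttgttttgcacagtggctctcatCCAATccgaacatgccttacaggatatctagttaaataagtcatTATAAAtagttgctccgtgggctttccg
LINC01003 promoter, chr7:152463874-152464173, plus strand: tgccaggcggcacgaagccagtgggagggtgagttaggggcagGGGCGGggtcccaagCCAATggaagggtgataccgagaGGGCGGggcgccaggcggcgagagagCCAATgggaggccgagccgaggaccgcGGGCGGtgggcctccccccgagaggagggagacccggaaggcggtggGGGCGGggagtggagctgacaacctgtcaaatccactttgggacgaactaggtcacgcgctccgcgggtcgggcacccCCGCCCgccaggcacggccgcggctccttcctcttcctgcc
LINC01234 promoter, chr12:113773634-113773933, minus strand: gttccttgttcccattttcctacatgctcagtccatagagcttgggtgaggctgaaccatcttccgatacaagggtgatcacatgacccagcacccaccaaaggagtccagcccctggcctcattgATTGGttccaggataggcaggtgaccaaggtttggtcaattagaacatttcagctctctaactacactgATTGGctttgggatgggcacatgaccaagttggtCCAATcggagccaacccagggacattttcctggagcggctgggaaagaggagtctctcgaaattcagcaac

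The LINC01003 promoter held 5 GC boxes, 2 CCAAT boxes and 28 CpG dinucleotides, in the manner of a CpG island. That of LINC01234 held 3 CCAAT boxes, no GC box and 4 CpG dinucleotides. LINC00839 also had 3 CCAAT boxes, with 1 TATA motif and 9 CpG dinucleotides, and LINC00693 had 1 GC box, 1 TATA motif and 24 CpG dinucleotides. A GC box was found in 47 of the 81 LINC promoters (58%) and in 45% of the 35116 promoters of the RefSeq table, which overlap where genes lie close together. The CCAAT box was present in 38.3% and 34.6% of them, and the TATA motif in 11.1% and 11.5%. Of the 6 called higher in Helz-null cells that had an entry, 1 had a GC box and 0 had the TATA motif, whereas all 3 called lower that had an entry held the TATA motif. The 3 include LINC00693, which was named in advance because of its change. In LINC00839 the motif lies within the 50 bases after the start of the gene. In LINC00693 it is on the opposite strand, near the upstream end of the printed sequence. A match therefore does not by itself mark a TATA box in its usual place. These counts are descriptions of small numbers of promoters, and a motif match is not a bound site.

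HELZ mRNA itself was lower in both Helz-null libraries, with 97.6 and 101.9 CPM in WT and 36.1 and 37.1 CPM in Helz-null cells. Its log2 fold change (log2FC, Helz-null over WT) was -1.44 with a standard error (SE) of 0.043 and an adjusted p of 2.57e-27. Here and below CPM are scaled by the TMM method, which corrects library totals for composition, and adjusted p-values are those of edgeR's quasi-likelihood test with Benjamini-Hochberg adjustment over all 14788 genes with at least 100 counts. A gene was called changed at a false discovery rate (FDR) under 0.005. In bulk RNA, fewer cells with a transcript and less of it per cell cannot be told apart.

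Of the 126 LINC genes 16 were called, 12 higher and 4 lower in Helz-null cells, and 110 were not. The share called was 12.7%, beside 23.9% of all genes tested. Higher LINC genes made up 9.52% of the 126, against 11.2% of all genes (1653 genes), and lower ones 3.17%, against 12.7% of all genes (1882 genes). Without LINC01419 and LINC00693 the numbers were 11 higher and 3 lower of 124 (11.3%). At an FDR under 0.05, 24 LINC genes were higher and 7 were lower, or 19% and 5.56%, where the shares of all genes were 18.3% and 19.6%. Up-regulated genes formed 46.8% of the calls over all genes, and 60.7% (2287 higher and 1480 lower) when libraries were scaled by their total alone, which moved the LINC calls to 15 higher and 4 lower. The DESeq2 test called 5 LINC genes higher and 4 lower, all 9 of them among the 16. LINC01419 and LINC00693, named in advance because of their change, are among the 9. Over all genes DESeq2 also called fewer, 1113 higher and 1377 lower.

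**Figure D1:**
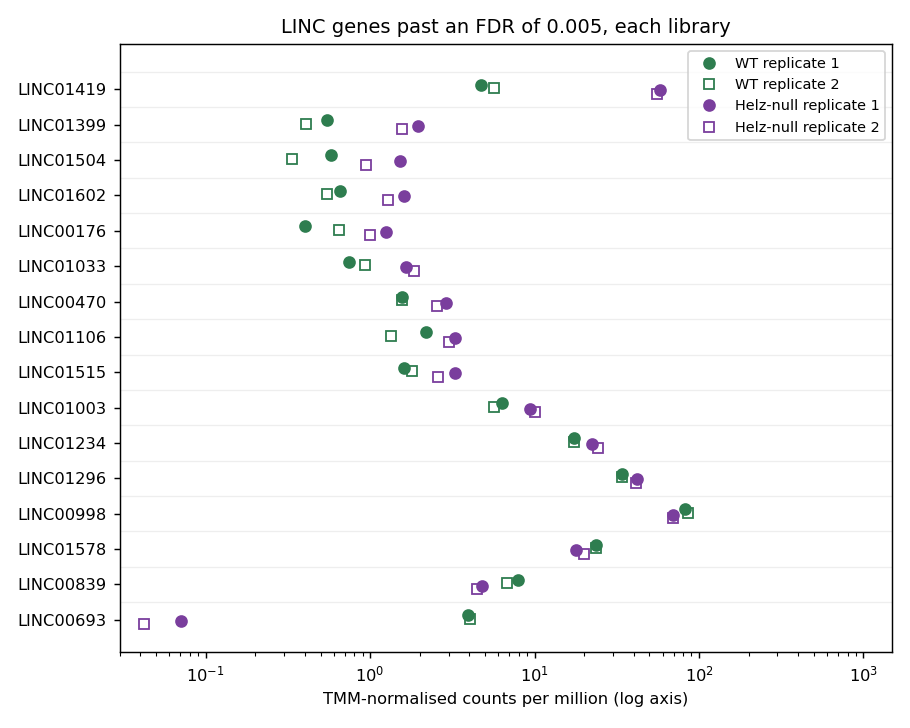
Level of the 16 called LINC genes in each library, in TMM-normalised CPM on a log axis, with WT libraries in green and Helz-null libraries in purple, circles for replicate 1 and squares for replicate 2. Genes are ordered by log2 fold change from LINC01419 (3.47) at the top to LINC00693 at the bottom, and the libraries of the 2 genotypes do not overlap for any of the 16.

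LINC01419 had 4.73 CPM in WT replicate 1, 5.67 CPM in WT replicate 2, 58.0 CPM in Helz-null replicate 1 and 55.4 CPM in Helz-null replicate 2. Behind these values stood 304 and 237 counts in WT and 2452 and 3951 counts in Helz-null cells. Both Helz-null libraries stood far above both WT libraries, and the ratio of the summed counts, corrected for library size, was 11.1-fold (95% interval 10.1 to 12.1, counting error only, or 9.78 to 12.6 if each fragment had been counted as 2 mates). LINC01419 is an intergenic RNA gene of 2 exons on the plus strand of chromosome 8, from 84315993 to 84321135 (GRCh37). In Helz-null cells it was among the most abundant LINC genes, and its mean level over the 4 libraries was 20.6 FPKM, the count scaled by library total and gene width.

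LINC00693 moved the opposite way and was nearly absent from Helz-null cells. It had 253 and 169 counts in WT but 3 counts in each Helz-null library, which is the floor of detection. In CPM this was 3.94 and 4.04 against 0.071 and 0.042. The ratio of the summed counts was 75.3-fold lower (95% interval 34.3 to 206.4), an interval that rests on 6 counts in Helz-null cells. If each fragment had been counted as 2 mates, these would be 3 fragments and the interval would widen to 25.4 to 368.1, and the fitted log2FC moved from -6.17 to -5.72 with halved counts. LINC00693 was not placed on GRCh37 by the annotation used here.

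The 3 other LINC genes called lower fell by less. LINC00839, a gene of 4 exons on chromosome 10 (42970928 to 42990785, plus strand), had 7.97 and 6.77 CPM in WT and 4.78 and 4.49 CPM in Helz-null libraries. Its log2FC was -0.69 (SE 0.12, adjusted p = 1.99e-05). LINC00998 was the most abundant LINC gene, with a mean of 67.8 FPKM, and is now named SMIM30 because it encodes a small integral membrane protein. Its level was 81.9 and 85.5 CPM in WT and 69.2 and 69.3 CPM in Helz-null libraries, a log2FC of -0.27 (SE 0.039, adjusted p = 4.31e-07). LINC00998 lies on the minus strand of chromosome 7, from 112756773 to 112758615.

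LINC01578 is now named CHASERR, an RNA made just upstream of the chromatin remodeller gene CHD2 and known to lower CHD2 expression. It was at 23.8 and 23.6 CPM in WT and 17.9 and 20.1 CPM in Helz-null libraries, with a log2FC of -0.31 (SE 0.067, adjusted p = 2.92e-04). CHD2 fell alongside it, from 66.7 and 65.1 CPM to 53.7 and 52.2 CPM (log2FC -0.32, adjusted p = 1.04e-07). The annotated exons of the 2 genes overlap on chromosome 15 (LINC01578 from 93362770 to 93442931, plus strand), so that reads of the shared part cannot be assigned to either with certainty. The call of LINC01578 was lost without Helz-null replicate 1 (log2FC -0.24, adjusted p = 0.0165).

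Next to LINC01419, the call with the largest rise was that of LINC01399, which had 35 and 17 counts in WT and 83 and 111 in Helz-null libraries. In CPM these were 0.545 and 0.406 against 1.963 and 1.558, with a log2FC of 1.83 (SE 0.28, adjusted p = 1.75e-06). The GENCODE annotation gives this locus on the minus strand of chromosome 22 (35515817 to 35627049) as a transcribed processed pseudogene, and RefSeq gives it as a long non-coding RNA. Reads of a pseudogene may be shared with its parent gene.

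LINC01003 is a gene of 1 exon on the plus strand of chromosome 7 (152160871 to 152162634), close to the start of the histone methyltransferase gene KMT2C, which lies 27142 bases away. It rose from 6.31 and 5.69 CPM to 9.34 and 10.1 CPM, a log2FC of 0.70 (SE 0.10, adjusted p = 9.05e-07). KMT2C was also higher in Helz-null cells (log2FC 0.30, adjusted p = 4.88e-08). LINC01234, on the minus strand of chromosome 12 (114021691 to 114211531), had 17.3 CPM in both WT libraries and 22.4 and 24.3 CPM in Helz-null libraries. Its log2FC was 0.44 (SE 0.068, adjusted p = 1.68e-06), and the WT values were closer to each other than the Helz-null values. LINC01296, which was chosen after its values were seen, changed least of the 12 higher genes, from 34.2 and 34.1 CPM to 41.7 and 41.3 CPM (log2FC 0.28, SE 0.051, adjusted p = 2.58e-05). It is now named DUXAP9, a double homeobox pseudogene of chromosome 14 with near-identical copies, and its counts are uncertain for that reason.

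The remaining 7 rises were seen in LINC genes with low counts, where the 2 libraries of a genotype often differed by a wide margin. LINC01602, a gene of chromosome 8 (58768059 to 58896685, plus strand), had 0.654 and 0.550 CPM in WT and 1.61 and 1.29 CPM in Helz-null libraries (log2FC 1.22, SE 0.28, adjusted p = 5.52e-04). LINC01033, a gene of chromosome 5 (53609394 to 53711068, plus strand), had 0.747 and 0.932 CPM in WT and 1.66 and 1.84 CPM in Helz-null libraries (log2FC 1.09, SE 0.25, adjusted p = 6.20e-04). LINC01504, whose exons overlap those of ZFAND5 on chromosome 9 (74920283 to 74971637, plus strand), had 0.576 and 0.335 CPM in WT and 1.51 and 0.940 CPM in Helz-null libraries (log2FC 1.31, SE 0.32, adjusted p = 0.00125). ZFAND5, a zinc-finger gene of much higher level, changed in the other direction (log2FC -0.13, adjusted p = 0.00314).

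In LINC00470, on chromosome 18 (1254384 to 1408345, minus strand), both WT libraries gave nearly the same value, 1.57 and 1.55 CPM, and the Helz-null libraries 2.88 and 2.57 CPM (log2FC 0.79, SE 0.20, adjusted p = 0.00144). LINC01515 of chromosome 10 (67330096 to 67640047, plus strand) had 1.62 and 1.79 CPM in WT and 3.26 and 2.60 CPM in Helz-null libraries (log2FC 0.77, SE 0.20, adjusted p = 0.00168). LINC01106 of chromosome 2 (111132715 to 111142019, minus strand) had 2.20 and 1.34 CPM in WT and 3.26 and 3.003 CPM in Helz-null libraries (log2FC 0.77, SE 0.20, adjusted p = 0.00169). Its WT libraries stood further apart than its Helz-null libraries. LINC00176, now C20orf204 and annotated as protein-coding on chromosome 20 (62665697 to 62671315, plus strand), had 0.405 and 0.645 CPM in WT and 1.25 and 0.996 CPM in Helz-null libraries (log2FC 1.12, SE 0.31, adjusted p = 0.00407).

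None of these 7 (LINC00176, LINC00470, LINC01033, LINC01106, LINC01504, LINC01515 and LINC01602) was called by DESeq2, and each lost its call when at least 1 of the 4 libraries was left out. Without WT replicate 1 LINC00176 had a log2FC of 0.77 (adjusted p = 0.121), and LINC00470 (log2FC 0.80, adjusted p = 0.00856), LINC01033 (0.91, adjusted p = 0.0176) and LINC01515 (0.69, adjusted p = 0.0191) were not called. Without WT replicate 2 LINC01106 (log2FC 0.51, adjusted p = 0.0509) and LINC01504 (log2FC 1.04, adjusted p = 0.015) were not called. Without Helz-null replicate 1 all but LINC01033 lost the call, with log2FC of 0.61 to 1.08 and adjusted p-values from 0.0108 for LINC01602 to 0.0502 for LINC01515. Without Helz-null replicate 2 LINC00176 (log2FC 1.30, adjusted p = 0.00709), LINC00470 (0.88, adjusted p = 0.00609), LINC01033 (1.00, adjusted p = 0.0189) and LINC01106 (0.84, adjusted p = 0.00518) missed the threshold. All 7 stayed above 0 in each of these fits, and some of the log2FC were larger than with all 4 libraries. Of the other called genes, LINC01419 and LINC00693 left aside, LINC00839, LINC00998, LINC01003, LINC01234, LINC01296 and LINC01399 kept the call without each library in turn, and LINC01578 did not. Just short of the threshold were LINC00665 (log2FC 0.97, adjusted p = 0.00501) and LINC01089 (log2FC 0.59, adjusted p = 0.00578), both named after their values were seen.

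Over all 126 LINC genes the log2FC was above 0 in 73 (57.9%) and below 0 in 53, where 49.9% of all genes tested were above 0. The median log2FC was 0.053, against -0.00045 for all genes, with the middle 50% of the LINC genes between -0.15 and 0.33. Leaving out single libraries moved this median between 0.0068 (without WT replicate 2) and 0.11 (without WT replicate 1), and its difference from 0 was not tested. It was 0.029 over the LINC genes with at least 50 counts in each genotype, 0.013 over those with at least 1000 counts and 0.088 with scaling by library size only, which moved the median of all genes to 0.034. By range of counts the LINC median was 0.14 from 100 to 299, 0.083 from 300 to 999, 0.0025 from 1000 to 2999 and 0.027 from 3000 counts upwards. The values of the 2 genotypes did not overlap in 75 LINC genes (59.5%), 48 higher and 27 lower in Helz-null cells, whereas this held for 66.9% of all genes. Besides LINC01419 and LINC00693, log2FC beyond 1 in size was found in 5 of the other 124 LINC genes (4.03%), all higher and all called, and in 243 of all genes tested (1.64%), of which 201 were called. The low levels of the LINC genes, at which estimates scatter more, go with this difference, and their part in it was not tested.

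**Figure D2:**
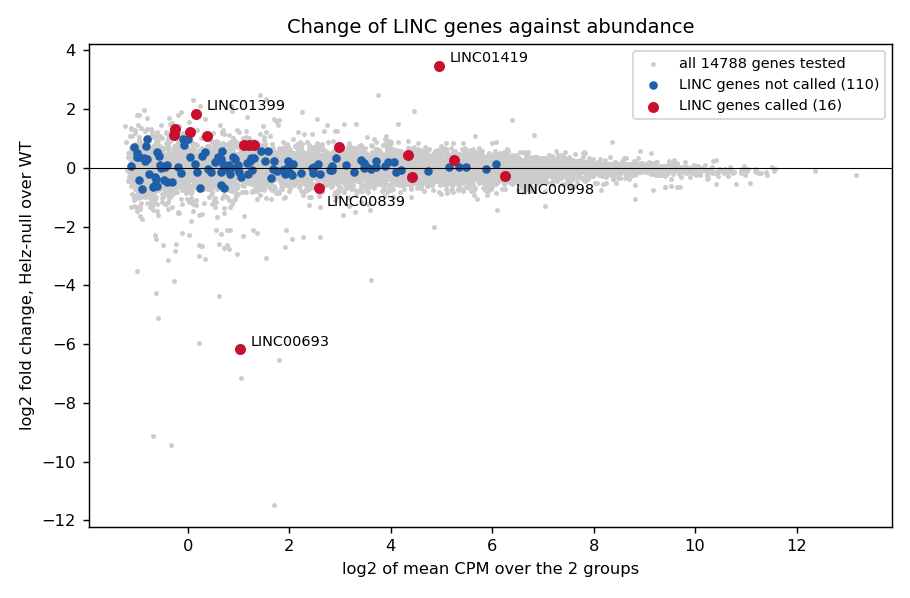
Log2 fold change (Helz-null over WT, vertical axis) against the log2 of the mean CPM of the 2 genotypes (horizontal axis), with all 14788 genes tested in grey, the 110 LINC genes that were not called in blue and the 16 called ones in red. The LINC genes sit mostly at the low-abundance side, where the scatter of all genes is widest, and LINC01419 and LINC00693 lie apart from the other LINC genes.

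LINC genes were expressed at low levels. Their median level, averaged over the 4 libraries, was 0.962 FPKM against 7.73 FPKM for all genes tested, and ranged from 0.120 to 67.8 FPKM. A level above 1 FPKM was reached by 61 of them, above 2 FPKM by 38 and above 10 FPKM by 7. Their share of all counts was 0.0826% and 0.0819% for the WT replicates, lower than the 0.0921% and 0.0902% of both Helz-null replicates. Without LINC01419 the shares were 0.0822% and 0.0814% against 0.0862% and 0.0846%, so that this gene made up most of the gap. The 8 LINC genes with the highest counts held 45.2% of the counts of all 126. Of the 126, 118 had at least 50 counts in each genotype, 6 fell short of that in WT and 2 in Helz-null cells. Among the 118, which include LINC01419 but not LINC00693, 12 were called higher and 3 lower. The shares over all genes tested, without this filter, were 11.2% higher and 12.7% lower.

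Since the share of genes called depends on depth, LINC genes were set beside all genes of the same summed count. From 100 to 299 counts 5 of 45 LINC genes were called (11.1%), all higher, with a background of 6.8% (2.68% higher and 4.12% lower). They were LINC01399, LINC01504, LINC01602, LINC00176 and LINC01033, of which DESeq2 called LINC01399 only. From 300 to 999 counts there were 4 of 43 (9.30%, 3 higher and 1 lower), with a background of 10.8% (5.84% higher and 5.01% lower). The lower one was LINC00693, without which there were 3 of 42 (7.14%). Between 1000 and 2999 counts 2 of 22 were called (9.09%, 1 in each direction), below the 18.6% of all genes (10% higher and 8.63% lower). At 3000 counts or more 5 of 16 were called (31.2%, 3 higher and 2 lower), with a background of 30% (13.7% higher and 16.3% lower). One of the 3 was LINC01419, which reached this range through its Helz-null counts, and without it there were 4 of 15 (26.7%). The median SE of the log2FC decreased over these ranges from 0.32 to 0.20, 0.11 and 0.064 in LINC genes, and from 0.31 to 0.18, 0.10 and 0.046 in all genes. At the depth of the lowest range only large changes could therefore be detected, and the numbers in each range are small.

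**Figure D3:**
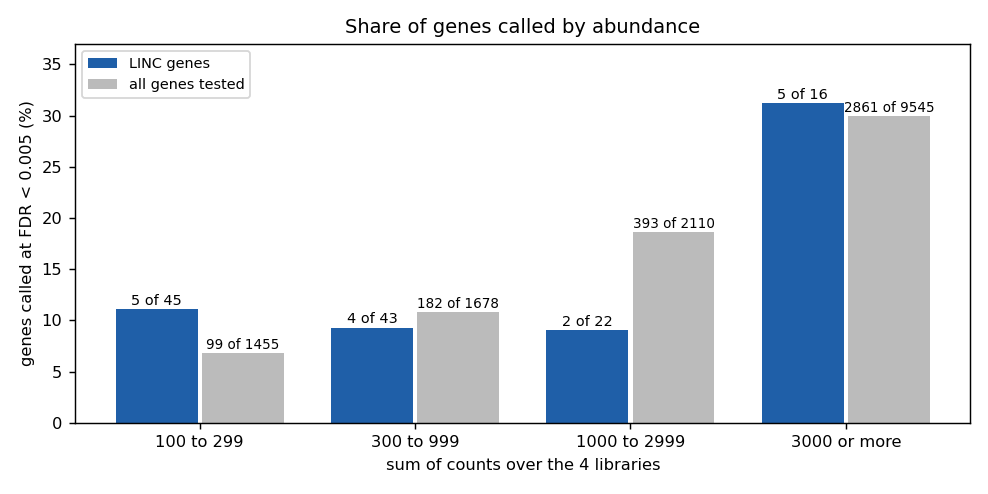
Share of genes called at an FDR under 0.005, in percent, for LINC genes (blue) and for all genes tested (grey) in 4 ranges of the sum of counts over the 4 libraries, with the number called of the number tested above each bar. LINC genes reach 31.2% beside 30% in the highest range, which includes LINC01419, and 9.09% beside 18.6% in the range below it.

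Many of the LINC genes are outside the comparison that was deposited with the counts, for which genes had been selected by FPKM. That comparison listed 45 of the 126 and left out 81. The 45 listed LINC genes had a median sum of 2348 counts and a median SE of 0.089, and 7 were called higher and 4 lower (24.4%), beside 28.6% of all listed genes in the same fit. Without LINC01419 and LINC00693, which are both listed, there were 6 higher and 3 lower of 43 (20.9%). The 81 others had a median of 271 counts and a median SE of 0.25, and 5 were called higher and 0 lower (6.17%) by the fit over all 14788 genes, beside 10.7% of all unlisted genes. These 5 were LINC00176, LINC00470, LINC01106, LINC01504 and LINC01602, all among the genes that lost the call with DESeq2.

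Several of the most abundant LINC genes belong to the loci that encode small proteins. LINC01420 is now NBDY, whose microprotein binds the mRNA decapping machinery at P-bodies, and had a mean of 58.8 FPKM. Its level was 39.4 and 41.0 CPM in WT and 42.3 and 40.4 CPM in Helz-null libraries, so that the genotypes overlapped. The log2FC was 0.04, with a 95% interval of -0.06 to 0.14 (adjusted p = 0.579). LINC00493, now SMIM26 and encoding a mitochondrial microprotein, had a mean of 35.1 FPKM, with 17.5 and 18.9 CPM in WT and 15.1 and 17.6 CPM in Helz-null libraries (log2FC -0.14, SE 0.076, adjusted p = 0.145). LINC00116, now MTLN and encoding mitoregulin of the inner mitochondrial membrane, had 6.68 and 6.34 CPM in WT and 5.49 and 5.64 CPM in Helz-null libraries. Its log2FC was -0.23 (SE 0.12, adjusted p = 0.132), and although the genotypes did not overlap it was not called. With LINC00998 these were the 4 loci that reached 100 counts from a short list of known ones, which is not complete, and 1 of the 4 was called, beside 18.6% to 30% of all genes at their depth. LINC00634, now SMIM45 and not on that list, had a log2FC of -0.05 (SE 0.22, adjusted p = 0.88) and was noticed after its values were seen.

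Among the other LINC genes of high level, LINC00467 had a mean of 16.1 FPKM, with 11.7 and 13.01 CPM in WT and 11.5 and 12.5 CPM in Helz-null libraries. Its log2FC was -0.03 (SE 0.085, adjusted p = 0.812), and its sign depended on the scaling. LINC00094, now BRD3OS and annotated as protein-coding, had a mean of 10.2 FPKM, with 59.1 and 60.2 CPM in WT and 57.8 and 57.9 CPM in Helz-null libraries (log2FC -0.04, SE 0.043, adjusted p = 0.471). The 8 LINC genes of highest mean FPKM were LINC00998, LINC01420, LINC00493, LINC01419, LINC00467, LINC01578, LINC00094 and LINC01234, and LINC01419 was among them only through its level in Helz-null cells (38.7 and 36.9 FPKM, against 3.08 and 3.69 FPKM in WT). Of the other 7, 1 was called higher and 2 lower, beside the 18.6% to 30% of all genes called in the 2 upper ranges of counts.

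The annotation (GENCODE, GRCh37) placed 112 of the 126 LINC genes, 85 by their symbol and 27 through an older symbol, and 14 were not placed. Of the 112 placed genes 98 were annotated as long non-coding RNA, 10 as protein-coding and 4 as transcribed pseudogenes. Exons overlapped those of another gene in 63, and those of a protein-coding gene in 28, so that for these the assignment of reads is uncertain. Of the called genes 5 overlapped another gene, and 2 of these, LINC01504 and LINC01578, a protein-coding one. The GC content of the transcripts, known for 111 of the 126, had a median of 47.5%, beside 48.7% in 13100 protein-coding genes. It was 44.9% in the 12 higher genes, 35.4% in the 3 lower ones with a value and 48.1% in those not called. Across these LINC genes, which share the same 4 libraries, the log2FC and GC content gave a Pearson's r of -0.02 and a Spearman's rho of 0.04.

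To see whether a LINC gene moved with its surroundings, each was compared with the tested genes starting within 1 Mb on either side. At least 3 such genes were present for 104 LINC genes. The log2FC of a LINC gene and the median log2FC of its neighbours gave an r of 0.04 and a rho of 0.0035 over the 104, as a description across genes of the same libraries. These values could hardly show a link, since the neighbours' median lay between -0.15 and 0.15 for 95 of the 104. The median SE of LINC genes was larger, 0.32 from 100 to 299 counts and 0.20 from 300 to 999. Of 6 LINC genes whose neighbours had a median of -0.15 or less 1 was called higher and 1 lower, and of 3 whose neighbours had a median of 0.15 or more 1 was called higher. The other 95 contained 8 higher and 2 lower calls. Among all genes tested 11.2% were called higher and 12.7% lower, and the share called ranged from 6.8% to 30% with the range of counts. The log2FC differed from the neighbours' median by more than 0.3 in 45 of the 104 (43.3%), and in 11 of the 13 called ones, for which the call itself favours a large difference.

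LINC01578 was the called gene that moved with its surroundings, since the log2FC of its 4 neighbours was below 0 in each case and had a median of -0.28. LINC01003 also lay in a region that was higher, with a median of 0.30 over 7 neighbours including KMT2C, and exceeded it by 0.40. LINC01296 rose beside 3 neighbours with a median of -0.46, whereas the 18 neighbours within 2 Mb had a median of 0.07. LINC00909, on chromosome 18, had a log2FC of 0.33 (SE 0.11, adjusted p = 0.0146) and was not called, beside 6 neighbours with a median of 0.43, none of them lower. It is named here for its place at the right of the plot of LINC genes and their neighbours.

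The 2 LINC genes with the largest changes were placed by the order of genes in RefSeq. LINC00693 lies on chromosome 3, and the tested genes next to it are AZI2 and RBMS3. Of the nearest 4 tested genes on each side 7 of 8 had a log2FC below 0, with a median of -0.30, among them the TGF-beta receptor gene TGFBR2 (log2FC -0.76, adjusted p = 2.09e-10), CMC1 (-0.41) and AZI2 (-0.21). The fall of LINC00693 was several times as large as theirs on the log2 scale. LINC01419 had no 3 tested genes within 1 Mb, and the 8 nearest by RefSeq order were mixed, 4 of 8 below 0 with a median of -0.05. The nearest on both sides, SNX16 (log2FC 0.06, adjusted p = 0.733) and LRRCC1 (0.38, adjusted p = 3.04e-04), changed far less than LINC01419.

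In 17 LINC genes the start lay within 1 kb of the start of a protein-coding gene on the other strand, an arrangement in which both transcripts can leave one promoter. None of the 17 was called by edgeR's test, at a median of 379 counts and a median SE of 0.22, beside 10.8% of all genes with 300 to 999 counts. Their 17 coding partners, with a median of 12252 counts and an SE of 0.045, contained 3 genes called higher (EOLA1, log2FC 0.31; EOLA2, 0.17; POU3F3, 0.37) and 2 called lower (SLC12A2, -0.38; UBE2G2, -0.15), 5 of 17 where 30% of all genes with at least 3000 counts were called. The sign of the LINC gene and of its partner was the same in 13 of the 17 pairs. In 5 pairs, all of the same sign (LINC00649 and ATP5PO, LINC00893 and EOLA1, LINC00894 and EOLA2, LINC00936 and ATP2B1, LINC01481 and CNOT2), the exons overlap those of the partner, so that reads may be shared if strand was not used. The other 12 pairs had the same sign in 8. LINC00894, the partner of EOLA2, had 2.51 and 1.77 CPM in WT and 3.33 and 3.21 CPM in Helz-null libraries (log2FC 0.58, SE 0.18, adjusted p = 0.0103). LINC01481, now PRANCR, starts opposite CNOT2, which encodes the NOT2 subunit of the CCR4-NOT complex, and its log2FC was 0.34 (SE 0.18, adjusted p = 0.147) beside 0.04 for CNOT2 (SE 0.042, adjusted p = 0.43). The genes of these pairs were chosen after their values were seen.

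Long non-coding RNAs with other symbols were compared as a further group, from a list of 39 well-known ones. Of these 33 were tested, 10 were called lower and 1 higher in Helz-null cells, and 22 were not called. The share called (33.3%) was near the 30% of all genes with at least 3000 counts, but the split by direction was not. In that range 16.3% of all genes were lower and 13.7% higher, whereas the list had 10 lower and 1 higher of 33. This difference in direction from all genes was not tested. Their median log2FC was -0.06, and their median sum of 4633 counts was well above the 440 counts of the LINC genes. The largest falls were those of ZFAS1 (log2FC -0.53, adjusted p = 7.61e-11), SNHG5 (-0.44, adjusted p = 3.47e-13) and SNHG12 (-0.37, adjusted p = 1.11e-04), which host small nucleolar RNAs, and of HOTAIRM1 of the HOXA cluster (-0.42, adjusted p = 2.89e-06). SNHG5 was also the most abundant of the list (219.9 FPKM), before the small nucleolar RNA host GAS5 (134.4 FPKM, log2FC -0.22, adjusted p = 9.03e-06) and NORAD, an RNA that binds Pumilio proteins (79.2 FPKM, log2FC -0.11, adjusted p = 9.50e-04). SNHG3 (log2FC -0.32, adjusted p = 1.58e-08) and SNHG16 (-0.25, adjusted p = 8.12e-08), 2 further hosts of small nucleolar RNAs, were also called lower. So were OIP5-AS1 (log2FC -0.25, adjusted p = 8.42e-05) and TUG1 (-0.16, adjusted p = 1.21e-04). Among the hosts that were not called, the log2FC was 0.07 for SNHG1 (adjusted p = 0.157), 0.03 for SNHG7 (0.621), -0.06 for SNHG15 (0.456), -0.06 for DANCR (0.255) and -0.22 for SNHG8 (0.00549).

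NEAT1, the scaffold RNA of nuclear paraspeckles, was the only one of the list called higher, from 98.5 and 90.5 CPM in WT to 122.7 and 112.9 CPM in Helz-null libraries (log2FC 0.31, adjusted p = 3.66e-08). The difference in direction between this list and the LINC genes was not tested, and the members of both lists were known when they were compared.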

How the data were processed

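Gene-level read counts, not normalised, were deposited by the authors, who removed ribosomal RNA reads with Bowtie2, mapped read pairs to hg19 with TopHat2 and counted with QuasR. Versions, annotation, use of strand and whether mates were counted singly are not given in the sources used here. The deposited totals are well above the numbers of mapped reads that the study states, as they would be if both mates of a pair had been counted, so a count may stand for 0.5 of a fragment, and counting intervals are given with halved counts too. The authors also deposited an edgeR comparison holding log2 fold changes, abundance as log2 values, FDR and p-values, of which only the gene names were used. A deposited gene width served to compute FPKM.

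Genes with at least 100 counts over the 4 libraries were fitted in R 4.3.3 with edgeR 4.0.16 (TMM factors 0.988 to 1.01, genotype as the only term, glmQLFTest). Adjusted p-values are Benjamini-Hochberg over all 14788 genes, with calls at FDR under 0.005, the threshold of the study. The common biological coefficient of variation was 2.73%. The residual degrees of freedom were 2, so estimates of spread were shared between genes. Intervals of the ratios of counts are exact and, like the floor of 3 counts, cover counting error only. The p-values measure the spread between libraries, which the study calls biological replicates. They do not measure variation between separately edited lines. The script was tested on simulated data.

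Genes were placed with GENCODE v44 lifted to GRCh37, or by older RefSeq symbols. RefSeq (GRCh38.p14) gave promoters and gene order only. The genes and lists were chosen with earlier results of these data known. Named were LINC01419, LINC00693, HELZ, up to 10 called LINC genes of largest change in each direction without overlap of genotypes, the 8 of highest FPKM, LINC loci known to encode a small protein, and called or abundant genes of the other list. DESeq2 1.42.0 and other scalings, filters, thresholds and left-out libraries were the alternatives.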

Additional observations from a re-analysis of the deposited data

How the results depend on the processing

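Of 315 values of the 20 named LINC genes under other settings 277 kept their direction and side of the threshold, 35 kept the direction only and lost the call, and 3 changed sign. All 3 belonged to LINC00467, not called at -0.03, which was at 0.0042 with scaling by library size only, at 0.038 without WT replicate 2 and at 0.015 without Helz-null replicate 1 (range without single libraries -0.11 to 0.038). The 12 higher LINC genes became 5 with DESeq2, 3 when the fold change had to exceed 1.2, 24 at an FDR under 0.05, 4 among LINC genes with at least 1000 counts, and 6 to 12 without single libraries. The 4 lower became 2 with the fold of 1.2, 7 at an FDR under 0.05 and 3 to 4 without single libraries. Counts over all genes were 276 higher and 408 lower with the fold of 1.2, 2707 and 2892 at an FDR under 0.05, and 1069 to 1626 higher and 1323 to 1834 lower without single libraries. With DESeq2 the counts over all genes were 1113 higher and 1377 lower. The median log2FC of the LINC genes ranged from 0.0068 to 0.106 without single libraries. In the list of other long non-coding RNAs the fold of 1.2 left 0 higher and 2 lower, an FDR under 0.05 gave 2 higher, and single libraries left out gave 1 to 2 higher and 9 to 10 lower. HELZ stayed between -1.47 and -1.41 without single libraries. Libraries of the 2 genotypes share only a replicate number (correlation of same-numbered deviations 0.0255 over 14788 genes). With the replicate number as a block, 16 LINC genes were higher and 4 lower, 1882 and 2070 of all genes, and 2 of the other long non-coding RNAs were higher. Fits without a library leave one genotype with 1 library, which is assumed to vary like the others. With windows of 0.5 and 2 Mb the median difference of LINC genes from their neighbours was 0.068 and 0.038, against 0.043 with 1 Mb. Low counts limit most LINC genes, and the cause of the lost calls was not tested.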
